A study of Homo sapiens with 14 samples.

Results

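Splicing of the mRNAs of DVL2 and 7 other core genes of the WNT signalling pathway (DVL1, DVL3, AXIN1, APC, GSK3B, CTNNB1 and CSNK1E) was examined in HEK293T cells with and without the K700E mutation of SF3B1. The genes were chosen by name, with the inclusion levels of these same libraries known, and their members were selected on reads: every splice event of the 8 genes with a mean of at least 10 junction reads in WT and MT. This gave 94 of 94005 events (99 of 114349 before the read minimum), of which 83 had a level that varied among the libraries, of 83581 such events in all.

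RNA-Seq was performed on 3 WT (K700K) and 3 MT (K700E) libraries of HEK293T, a human embryonic kidney line. In the isogenic MT line the mutation sits in the endogenous gene, and SF3B1 encodes the subunit of the U2 snRNP that holds the branch site next to the 3′ splice site. Nothing in the labels says that the libraries of a genotype came from separate cultures, so the spread between them may be technical. DRIP-seq, which recovers R-loops (RNA:DNA hybrids) with the S9.6 antibody, was performed on WT and MT cells of Nalm-6, a leukemic B cell line, on untreated DNA and on DNA treated with RNase H1 (RNH1), which removes the hybrids.

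In the canonical WNT pathway, a complex built on the scaffolds AXIN1 and APC holds β-catenin, the product of CTNNB1, for phosphorylation by GSK3B and casein kinases, and phosphorylated β-catenin is degraded. Dishevelled proteins, encoded by DVL1, DVL2 and DVL3, are recruited to Frizzled receptors when a WNT ligand binds, are phosphorylated by casein kinase 1ε (CSNK1E), and bring AXIN1 to the membrane, so that β-catenin accumulates and enters the nucleus. Cells with mutant SF3B1 are known for the use of cryptic 3′ splice sites.

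The inclusion level is a fraction from 0 to 1, and differences are MT minus WT. Except in mutually exclusive events, it is the share of the longer form among the junction reads of that event, adjusted for form length. Events with the same splice sites can therefore differ in level, and the level is no share of all transcripts of a gene. In mutually exclusive events it sets the reads of 1 exon against those of another. Where a transcript holds both exons, that level is no share of transcripts. The event with the lowest difference among all members was an alternative 3′ splice site at exon 11 of the 15 exons of the annotated canonical DVL2 transcript (gene ENSG00000004975.11). It offers 2 acceptors for the same exon. Both are shown because the choice between them is the event, with the last 30 bases of the intron and 6 bases of the exon, 5′ to 3′ on the minus strand of GRCh38, and the AG at the end of each intron in capitals. The upstream acceptor is at chr17:7227778-7227813 and the downstream acceptor at chr17:7227706-7227741.
DVL2 upstream acceptor: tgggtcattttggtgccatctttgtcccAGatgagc
DVL2 downstream acceptor: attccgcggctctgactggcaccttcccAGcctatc

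The segment between them, at chr17:7227712-7227783, is the sequence that the short form lacks. It is 72 bases long, coding, and ends in the AG of the downstream acceptor, in capitals.
DVL2 exon 11 segment: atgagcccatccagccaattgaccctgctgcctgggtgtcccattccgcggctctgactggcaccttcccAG

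The upstream acceptor is used by 4 and the downstream acceptor by 1 of the 15 annotated DVL2 transcripts. Use of the downstream acceptor shortens the exon from 129 to 57 bases and lengthens the intron from 193 to 265 bases. The segment spans 24 codons and leaves the reading frame unchanged: the annotated protein has 736 codons and the short form 712, with 0 stop codons introduced. The segment touches codons 368 to 392. In the 20 bases before the AG, 75% are pyrimidines at the upstream and 70% at the downstream acceptor. The medians over the 5351 alternative 3′ site events tested were 70% at both sites, so these shares were near the usual ones. The distance between the acceptors was at least 72 bases in 37.4% of these events and a multiple of 3 in 46.8%.

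**Figure D1:**
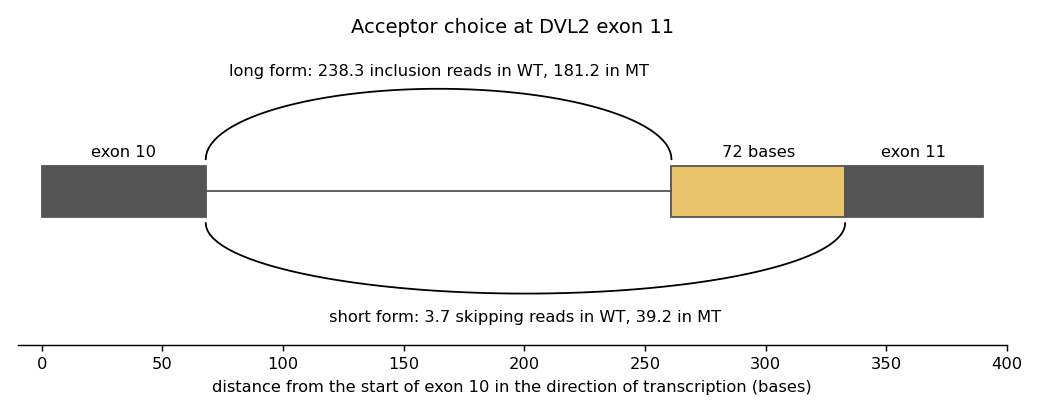
Map of the DVL2 event, to scale, with exon 10, the intron, the 72-base segment and the rest of exon 11 along the x axis (distance in bases) and an arc for each junction. The authors' mean skipping reads, which join exon 10 to the downstream site, were 3.7 in WT and 39.2 in MT, and their mean inclusion reads were 238.3 and 181.2.

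The 3 WT libraries had inclusion levels of 0.993, 0.969 and 0.953 for the segment. The 3 MT libraries had levels of 0.745, 0.720 and 0.715. Every MT library was below every WT library, and the difference of the closest pair of libraries was -0.208. The mean fell from 0.972 ± 0.020 (SD, n = 3) to 0.727 ± 0.016 (SD, n = 3), a difference of -0.245. Since the gene was chosen with this difference known, it is given as a description, with no p-value. As large a fall or a larger one was found in 252 of all 83581 events tested and in 31 of the 5351 alternative 3′ site events.

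The authors' mean junction reads show both forms. Reads of the long form went from 238.3 in WT to 181.2 in MT, and reads of the short form from 3.7 to 39.2. Long-form reads are counted over an effective length of 163 bases and short-form reads over 92, so the forms are compared with each other only through the inclusion level. The MT means are over 6 values listed for each event, although the labels name 3 MT samples. Separate columns exist for 3 of the 6, and whether these are the labelled samples is not settled. Cassette events over exon 10 use the same 2 acceptors as their downstream end, so they are not independent of the first event. With the short acceptor, the mean inclusion reads were 124.7 in WT and 177.8 in MT, and with the long acceptor 275.7 and 260.2. Inclusion reads of a cassette event count both junctions of the exon, and the upstream junction of exon 10 does not depend on the acceptor. They are therefore no measure of acceptor use, for which the short-form reads of 3.7 and 39.2 are given above. Exon 10 itself was included at levels of 0.976 or higher in all libraries in both events.

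DVL1 and DVL3 encode the other dishevelled proteins. Their exon 11 was set against that of DVL2 base by base from its first base, with no gaps allowed. Bases 49 to 78 of exon 11 are shown for the 3 genes, because they cover the place of the short DVL2 acceptor. Bases 71 and 72, which are the AG in DVL2, are in capitals. The stretches are at chr1:1339362-1339391 (minus strand), chr17:7227706-7227735 (minus strand) and chr3:184166874-184166903 (plus strand).
DVL1 exon 11: cggcactgacaggagccctgccCCgctacg
DVL2 exon 11: cggctctgactggcaccttcccAGcctatc
DVL3 exon 11: cagccatgaccggcaccttcccTGcatacg

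Over the first 72 bases of the exon, DVL1 is identical to DVL2 at 50 bases (69.4%) and DVL3 at 58 bases (80.6%). Of the 3 genes, DVL2 alone has AG at bases 71 and 72. The table lists no alternative 3′ site event for DVL1. DVL3 has its own event at exon 11, with an acceptor 51 bases into the exon, shown with its AG in capitals (chr3:184166847-184166882, plus strand).
DVL3 downstream acceptor: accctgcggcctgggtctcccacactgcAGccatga

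Its long form was at 0.986, 0.989 and 1 in WT and at 1, 0.99 and 1 in MT. The groups overlapped, and nearly all reads of the event belonged to the long form in both genotypes (limma, Benjamini-Hochberg adjusted p = 0.856, 117 reads). Another DVL3 event, with acceptors 14 bases apart, was at 0 in all 6 libraries. Its mean inclusion reads were 0 in WT but 1.0 in MT, where the authors' mean covers 6 listed values. The MT values without a column thus held reads of its longer form.

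DVL2 had 22 events in all. Its other alternative 3′ site events lay at exons 7 and 4. At exon 7, where the acceptors are 28 bases apart, the longer form was at 0.014, 0.006 and 0.036 in WT and at 0.047, 0.021 and 0.019 in MT. At exon 4, where they are 18 bases apart, it was at 1, 0.989 and 0.976 in WT and at 0.974, 0.994 and 0.968 in MT. The groups overlapped in both events, and their differences were 0.010 and -0.010.

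An alternative 5′ site of DVL2 exon 4, with donors 12 bases apart, was present in 2 events. In the event with 148 reads, the WT libraries were at 0.718, 0.690 and 0.695 and the MT libraries at 0.653, 0.710 and 0.718, with overlap. In the other, with 15.9 reads, all WT libraries were at 1 and the MT libraries at 0.817, 0.926 and 1. This difference of -0.086 was the next largest in the gene, and it rests on few reads and on 2 of 3 MT libraries.

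The 11 DVL2 cassette events included their exon at 0.954 or higher in every library, and their differences lay between -0.009 and 0.010. The retained intron was at 0.036, 0.041 and 0.059 in WT and at 0.049, 0.046 and 0.059 in MT. The 5 mutually exclusive exon events had differences between -0.037 and 0.035. In one of them, over exons 6 and 4, the WT libraries were at 0.584, 0.566 and 0.588 and the MT libraries at 0.652, 0.589 and 0.601. The groups did not overlap there, but by a margin of 0.001, and the near-identical event beside it, which shares its reads, tied. Across the 8 genes, 13 of the 15 mutually exclusive events paired 2 exons that the annotated main transcript holds together. Their levels compare the reads of the 2 exons and are no share of transcripts.

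**Figure D2:**
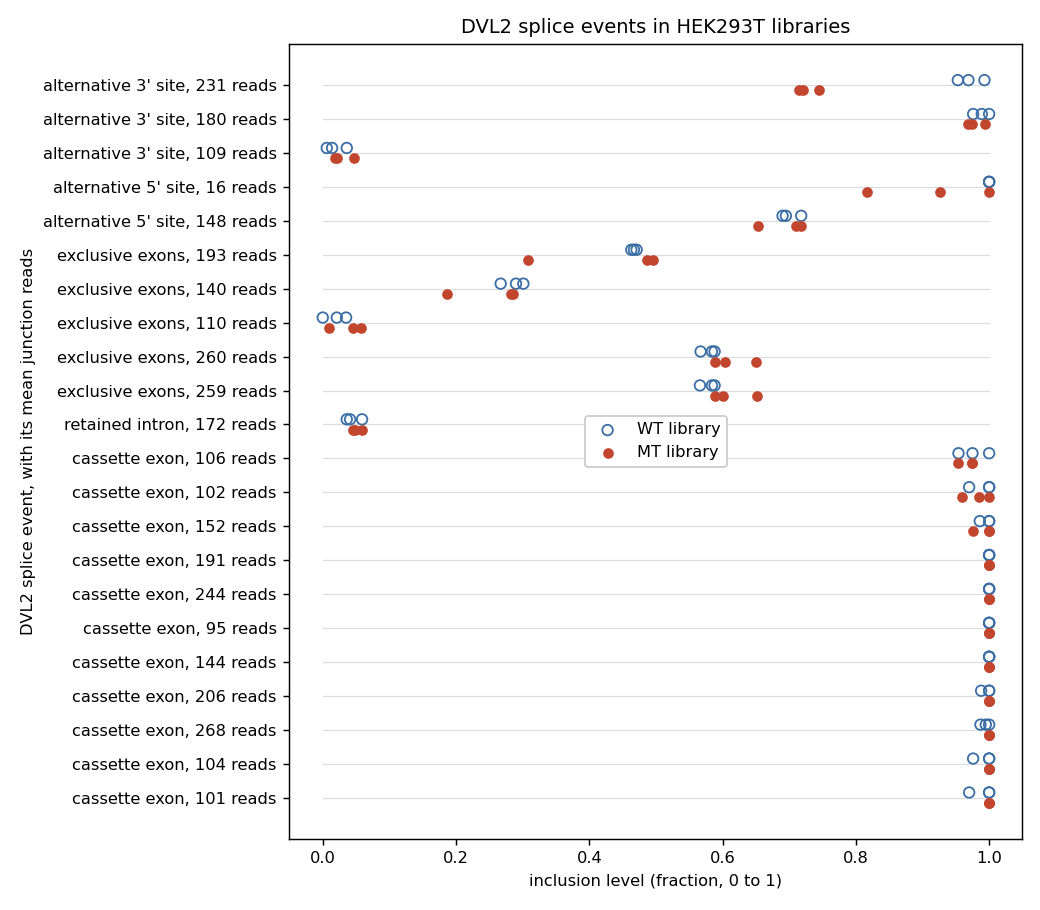
Inclusion level (x axis, fraction) of the 22 DVL2 events (y axis, by type and mean junction reads), with 3 open circles for the WT and 3 filled circles for the MT libraries. The uppermost event is the exon 11 acceptor, with MT libraries from 0.715 to 0.745 and WT libraries from 0.953 to 0.993, and the groups of most other events overlap or tie.

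Outside DVL2, 0 of the 65 member events tested passed an adjusted p of 0.05 with a difference above 0.1 (limma, Benjamini-Hochberg over all 83581 events), with 1 at an unadjusted p under 0.05 and a lowest adjusted p of 0.595. Over all events, 3738 had an unadjusted p under 0.05 and 26 passed, or 0.0311%. The 26 include the DVL2 exon 11 event, which is no test of that event, since its difference was known when the gene was chosen. It was not among the events passing with a logit transform, with no variance trend, with constant events kept, or without the first or the second MT library. The groups did not overlap in 6 member events, 3 higher and 3 lower in MT, where 5.46% of all events did not overlap. In 1 of these the difference was also above 0.1, where 1.73% of all events were. Nothing is read from these shares, since the genes were chosen with this contrast known. The median absolute difference was 0.00967 over the members and 0.0137 over all events. Apart from the DVL2 event, no member differed by more than 0.1.

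**Figure D3:**
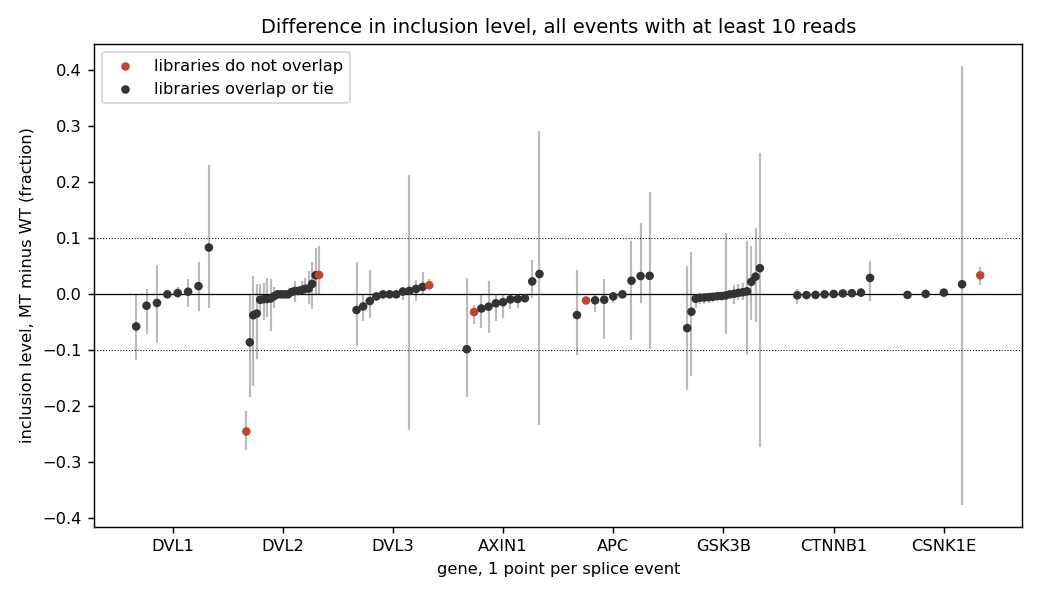
Difference in inclusion level (y axis, MT minus WT) of the 94 member events, 1 point each, by gene (x axis). Grey bars span the smallest to the largest difference between single MT and WT libraries, dotted lines mark 0.1 either way, and red points are the 6 events whose libraries do not overlap. The DVL2 exon 11 event is at -0.245 and all others lie between -0.098 and 0.084.

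CSNK1E, the kinase that phosphorylates dishevelled proteins, had the best supported event outside DVL2. It is a cassette exon of 61 bases at chr22:38295387-38295447, within the coding span, held by 1 of 15 annotated transcripts, and its length is not a multiple of 3. The WT libraries included it at 0.011, 0.016 and 0.015 and the MT libraries at 0.060, 0.033 and 0.051. All MT libraries were above all WT libraries, with means of 0.014 ± 0.0026 and 0.048 ± 0.014 (SD, n = 3 each) and 577 reads. The difference of 0.034 did not pass the adjustment (limma, unadjusted p = 0.0023, Benjamini-Hochberg adjusted p = 0.595). A readthrough gene, TPTEP2-CSNK1E, overlaps on the same strand, and its reads cannot be told apart from those of CSNK1E. The CSNK1E event with the most reads, a 149-base exon with 1422 reads, was at 1 in every WT library and at 0.998, 1 and 0.999 in MT.

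In DVL1, the largest difference was at an alternative 5′ site of exon 11, where 75 bases are kept or removed (chr1:1339287-1339361). The WT libraries were at 0.448, 0.381 and 0.247 and the MT libraries at 0.423, 0.478 and 0.426. The groups overlapped, and the WT libraries spread more widely than the MT libraries (SD 0.102 and 0.031). The difference of 0.084 did not pass the test (limma, Benjamini-Hochberg adjusted p = 0.856), and it was 0.028 without the third WT library and 0.128 without the first. In DVL3, the largest difference was -0.028, also at an alternative 5′ site, with WT at 1, 0.943 and 1 and MT at 0.907, 1 and 0.952. The events with the most reads in the 2 genes, over exon 3 of DVL1 and exon 2 of DVL3, were at 0.974 or higher in all libraries, with differences of 0.0023 and 0.0097. A DVL3 cassette exon was at 0 in all WT libraries and at 0.014, 0.027 and 0.008 in MT, without overlap, with a mean of 1.17 inclusion reads in MT.

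The scaffold AXIN1 had the next largest difference after DVL2, in a mutually exclusive event over exons 4 and 3, both held by the annotated main transcript. The WT libraries were at 0.667, 0.570 and 0.707 and the MT libraries at 0.600, 0.523 and 0.527. The groups overlapped through the second WT and the first MT library, and the difference of -0.098 did not pass the test (limma, Benjamini-Hochberg adjusted p = 0.856). Another AXIN1 event, also of mutually exclusive exons, was at 1 in all WT libraries and at 0.947, 0.977 and 0.981 in MT. The groups did not overlap, on 28.9 reads. The mean reads of its other exon were 0 in WT and 0.5 in MT, where the authors' mean covers 6 listed values. The AXIN1 event with the most reads, over exon 7, was at 1 in WT and at 1, 0.988 and 0.991 in MT.

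In APC, the other scaffold, the largest difference was -0.037, in a cassette exon outside the coding span with 14.1 reads, at 0.143, 0.100 and 0.167 in WT and 0.097, 0.059 and 0.143 in MT. An APC exon with little inclusion was at 0.012, 0.011 and 0.010 in WT and at 0 in the MT libraries with a column, without overlap. Its mean inclusion reads were 1 in WT and 0.333 in MT. The MT mean covers 6 listed values, so inclusion was not 0 in all of these. The APC event with the most reads, over exon 7, was at 0.984 or higher in all libraries.

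In GSK3B, the kinase of the complex, a mutually exclusive event over exons 9 and 8, both held by the annotated main transcript, had the largest difference, -0.060. Its WT libraries were at 0.659, 0.541 and 0.592 and its MT libraries at 0.592, 0.489 and 0.530, with overlap, and the difference ranged from -0.089 to -0.030 when 1 library was left out. The GSK3B event with the most reads, over exons 3 and 2, ranged from 0.461 to 0.716 in WT and from 0.443 to 0.713 in MT, so that libraries of 1 genotype differed far more than the genotypes did.

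CTNNB1, which encodes β-catenin, had some of the most deeply covered members, with 457 to 1284 reads an event. Its largest difference was at an alternative 3′ site in the 3′ untranslated region, with acceptors 159 bases apart (chr3:41239660-41239818). The WT libraries were at 0.449, 0.458 and 0.469 and the MT libraries at 0.498, 0.457 and 0.509. The second MT library lay among the WT libraries, and the difference of 0.029 did not pass the test (limma, Benjamini-Hochberg adjusted p = 0.856). Another event with the same 2 acceptors, on 457 reads, was at 1, 1 and 0.995 in WT and at 1 in all MT libraries. Neither level is therefore the share of CTNNB1 transcripts that use a site. The CTNNB1 event with the most reads, over exon 11, was at 0.998, 1 and 1 in WT and at 1 in all MT libraries. All other CTNNB1 differences lay between -0.002 and 0.003.

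**Figure D4:**
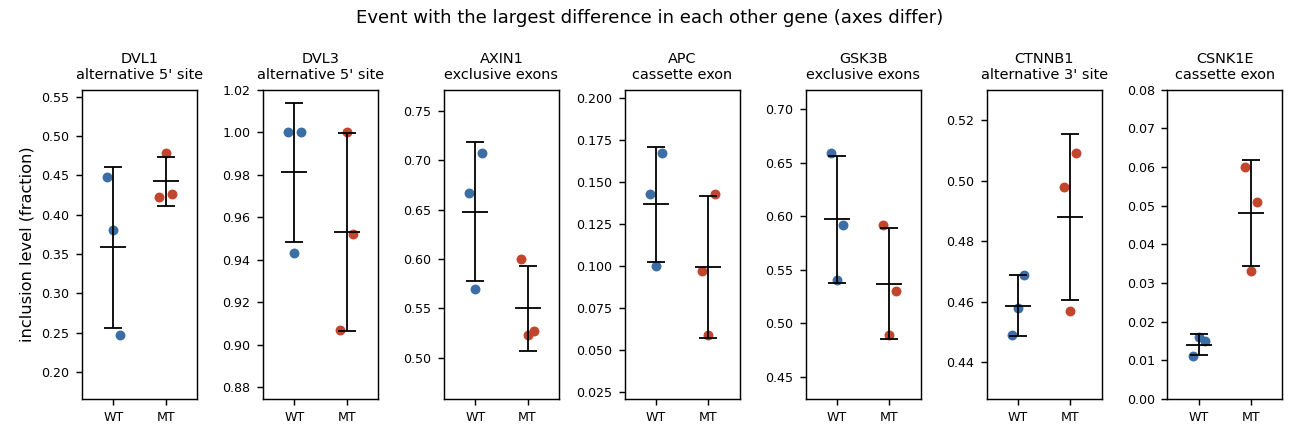
Inclusion level (y axis, fraction, a separate scale for each gene) of the event with the largest difference in each of the 7 other genes, with a point per library and the mean ± SD of 3 WT and 3 MT libraries. In CSNK1E the MT libraries (0.033 to 0.060) lie above the WT libraries (0.011 to 0.016), and in the other 6 genes the groups overlap.

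The read minimum left out 5 events. Just outside it were 2 DVL2 cassette events with 2.58 and 2.42 reads and a DVL3 event with 1.25 reads, and just inside it were the APC exon with 14.1 and the DVL2 event with 15.9 reads. The mean reads of an event had a median of 81.7 in WT and 82.7 in MT over all events tested. The table gives no total depth of a library.

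The 5 events of other genes most like the DVL2 event were found by their level in the 6 libraries, each less its WT mean, as the root mean square distance from DVL2. They were an alternative 3′ site of COMMD3 (distance 0.022), a retained intron of PPOX (0.0295), mutually exclusive exons of WDR90 (0.0301), a retained intron of NSUN5P1 (0.0323) and a cassette exon of DCLRE1C (0.0368). COMMD3 was at 1 in all WT libraries and at 0.739, 0.778 and 0.750 in MT, but on 14.3 reads against 231 for DVL2. Its acceptors are 300 bases apart, where those of DVL2 are 72 apart. The 5 events had 14.2 to 50.8 reads, fewer than DVL2 in each case.

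**Figure D5:**
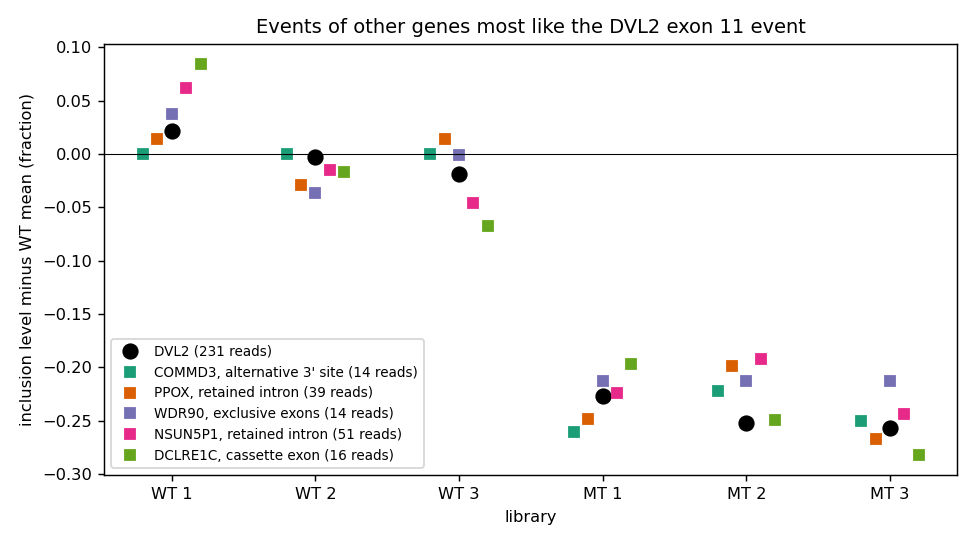
Inclusion level less the WT mean (y axis, fraction) in each of the 6 libraries (x axis) for the DVL2 exon 11 event (black) and the 5 events of other genes most like it (squares). In every MT library all 6 events lie below all their WT libraries.

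Events of 62 other WNT genes were examined as a list, and 42 of the genes had 427 events tested. None passed the threshold (limma, Benjamini-Hochberg), with 19 at an unadjusted p under 0.05 and a lowest adjusted p of 0.322. Over all events, 3738 of 83581 had an unadjusted p under 0.05, a like share. The groups did not overlap in 12 events that were higher and 7 that were lower in MT, or 4.45%, beside 5.46% of all events. Roles were assigned when the list was drawn up, with CCDC88A among partners of dishevelled and CTNND1 among nuclear factors. By role, the numbers higher and lower were 1 and 1 of 69 for ligand secretion and receptors, 4 and 1 of 112 for the destruction complex and its enzymes, 0 and 4 of 32 for partners of dishevelled and planar polarity, and 7 and 1 of 214 for nuclear factors. The median difference of the 427 events was -0.003, beside -0.002 over all events.

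In 6 of these 427 events the groups did not overlap and the difference was above 0.1. The same held for 1446 of all 83581 events, or 1.73%, so nothing is read from the count. CTBP2, a nuclear corepressor, had a cassette exon at 0.556, 0.600 and 0.667 in WT and at 1 in all MT libraries, on 11.4 reads. TCF7L2, a transcription factor that binds β-catenin, had an alternative 3′ site at 0.2, 0.256 and 0.329 in WT and at 0.388, 0.481 and 0.394 in MT, on 92.5 reads. Its longer form was more included in MT, by 0.159, but the event did not pass the test (limma, Benjamini-Hochberg adjusted p = 0.856). The others were in CTBP2, CSNK1G3, CCDC88A and APC2.

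R-loops at the 8 genes were examined in Nalm-6 cells, with each gene extended by 3000 bp upstream. These are other cells than those of the splice events, so the assays cannot be set against each other in the same cells. The untreated libraries held 0 peaks at DVL1, DVL2 and DVL3 in both genotypes, and none lay over the DVL2 event. Peaks were found mainly in the longest genes, GSK3B (273674 bp) and APC (138722 bp), while DVL2 spans 9176 bp. GSK3B held 17 and 15 untreated peaks in WT, against 33 and 38 in MT. After RNH1 it held 4 and 9 peaks in WT, against 33 in both MT libraries.

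Bona fide peaks, those of an untreated library that did not touch any peak found after RNH1 under the same genotype and number, came to 28 and 25 over the 8 genes in WT and to 30 and 34 in MT. Of these, GSK3B held 15 and 11 in WT, against 16 and 18 in MT. The MT mean was 5.5 peaks higher, with no overlap between the libraries (exact permutation, two-sided, p = 0.333, which is as low as 2 against 2 libraries can give). With a fold enrichment of at least 4, both WT libraries had 14 peaks and the MT libraries 10 and 13, and the difference turned to -2.5. Bona fide peaks of the whole lists were not counted here, so the difference is not read as particular to the 8 genes. The authors report more bona fide peaks in MT than in WT cells over the whole genome. Untreated peaks numbered 35 and 34 in WT and 68 and 75 in MT. The whole lists of these libraries differed likewise, at 123841 and 131230 in total for WT against 254430 and 296808 for MT, and the part of this in the counts at the 8 genes was not tested. Peaks after RNH1 numbered 11 and 20 in WT and 57 and 56 in MT. The start of CTNNB1 was taken as the outermost annotated base of the gene, with 3000 bp on each side. Its other start sites were not examined separately. In this window, the highest untreated peak reached a fold enrichment of 4.91 and 4.61 in WT libraries, against 11.3 and 10.6 in MT libraries. The WT peaks there were bona fide, while the MT peaks overlapped peaks found after RNH1, so that 0 of them were bona fide.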

How the data were processed

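RNA-Seq of HEK293T cells (3 WT and 3 MT libraries) and DRIP-seq of Nalm-6 cells (8 libraries) were used, with groups taken from the genotype and treatment labels. The deposited inclusion level is a fraction that the authors computed after the rMATS model: inclusion reads per form length over the sum of both forms. Mean junction reads are the authors' means. The submitters' processing notes name STAR, StringTie and BWA, and the build is GRCh38. Another 6 columns with lists of values per sample were not used, since 6 MT values are listed for 3 MT samples. For this reason the levels, not counts, were tested. The authors' columns of p-values, adjusted p-values, differences and calls were not used. The deposited peak lists, called for each library with MACS2, give a fold enrichment, a ratio over local background, and no reads.

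Levels were compared with limma 3.58.1 under R 4.3.3 after an arcsine square root transform, with a variance trend on log2 mean reads and Benjamini-Hochberg adjustment over all 83581 events with at least 10 reads and a level that varied. A call needed a difference above 0.1 at an adjusted p under 0.05. The fit was tested on simulated data. The fit missed most of the smaller differences placed in those data, so an event that did not pass is not shown to be unchanged. MT libraries are numbered by the order of their columns. Positions, sequences and transcripts came from GRCh38 and GENCODE 44 (pysam 0.24.0). Intervals from counting were not given, because reads of single libraries were not used.

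The 8 genes, the list of 62 WNT genes and the tests were chosen with earlier results of these data known. The text names every DVL2 event by type, for each other gene the event with the largest difference and that with the most reads, and the 5 events most like the DVL2 event. The events of the other genes whose libraries did not overlap, and the WNT list events with values, were named after their values were seen.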

Additional observations from a re-analysis of the deposited data

How the results depend on the processing

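The count of member events past the threshold was 1, the DVL2 exon 11 event, whose difference was known when the gene was chosen, so the count is no test of it. It was 0 with a logit transform, with no variance trend, with constant events kept, and without the first or the second MT library, and ranged from 0 to 1 when a library was left out. The cause was not tested. Over all events, 26 calls became 0 with the logit transform, 0 with no variance trend, and 3 to 13 without a library, with a lower count for each of the 6 left out. They rose to 37 with constant events kept, fell to 19 with no read minimum and stayed at 26 with at least 20 reads. The WNT list went from 0 to 1 with constant events kept, and stayed at 0 without any library. The DVL2 difference itself, which needs no test, ranged from -0.254 to -0.234 without a library. Leaving out 1 of 3 libraries cannot move a mean difference by as much as the spread between libraries, so this range is no sign of stability. In the same way the largest differences of the other genes ranged from 0.028 to 0.128 (DVL1), -0.052 to -0.005 (DVL3), -0.137 to -0.069 (AXIN1), -0.059 to -0.017 (APC), -0.089 to -0.030 (GSK3B), 0.019 to 0.045 (CTNNB1) and 0.028 to 0.042 (CSNK1E). The difference in bona fide peaks, 5.5, became -2.5 with a fold enrichment of at least 4 and 37.0 without RNH1 subtraction, and ranged from 3.5 to 7.5 without a library.

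No paired analysis was possible because the numbers in the names of the MT columns are not tied to labelled replicates, with 6 MT values listed for 3 samples. A junction at 0 in 3 libraries was not detectable at this depth, not absent. Peak lists without reads give no depth.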
